A study of Homo sapiens with 4 samples.

Results

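The EPH receptors and their ligands, the ephrins, were examined in HCT116 cells, a line from a human colorectal carcinoma. The set was defined by a list of 10 gene symbols, EPHB4, EPHB2, EPHB3, EPHB6, EPHA1, EPHA2, EPHA4, EFNA1, EFNB1 and EFNB2, and took every probe set that the array's annotation assigns to 1 of these symbols and to no other gene. This gave 18 of the 54675 probe sets and covered 9 of the 10 genes, out of 19775 genes with such a probe set. Where a gene has several, each is named by the public sequence record it was designed on, as the annotation lists it. EPHB2 had no probe set that met the rule and was not analysed here. RNA was measured on 1 array for each of 4 kinds of HCT116 cells: untransfected cells, cells with the non-targeting hairpin vector shCTRL, and cells with shRNA #1 or shRNA #2 against KSR1, called hairpin #1 and hairpin #2 below. Per the labels, vectors were introduced with lipofectamine 2000 and cells were selected as clones in puromycin, so every group apart from the untransfected cells had passed through transfection and selection. The sources do not say how many clones stand behind an array. With 1 array per kind of cell, no difference between 2 arrays has a replicate check.

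EPH receptors are receptor tyrosine kinases that bind ephrins on the surface of a neighbouring cell. Signals run both ways, forward through the receptor and in reverse through the ephrin, and they mostly govern repulsion, adhesion and the sorting of cells. A-type ephrins are held in the membrane by a lipid anchor and mainly bind EPHA receptors, whereas B-type ephrins span the membrane and mainly bind EPHB receptors. In the intestinal crypt EPHB2 and EPHB3 are known Wnt targets that keep cells in position against ephrin-B ligands. KSR1 is a scaffold of the RAF, MEK and ERK kinases, and EPHB4 has been studied beside KSR1 as a protein that colon tumour cells need.

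The stretches before the transcription start are shown for 4 receptors whose array patterns differed. EPHB4 varied little, with untransfected cells lowest, and EPHB3 was lowest with hairpin #1 and highest with hairpin #2. EPHA2, and EPHA4 on NM_004438 but not on all its probe sets, had untransfected cells apart on the low side. Each is the last 150 bases before the start on the gene's own strand, 5′ to 3′, from RefSeq with build GRCh38.p14, and capitals mark the GC box GGGCGG on either strand. They lie at chr7:100827524-100827673 (minus strand) for EPHB4, chr3:184561635-184561784 (plus strand) for EPHB3, chr1:16156070-16156219 (minus strand) for EPHA2 and chr2:221572305-221572454 (minus strand) for EPHA4, where the downstream one of the starts listed was taken.
EPHB4: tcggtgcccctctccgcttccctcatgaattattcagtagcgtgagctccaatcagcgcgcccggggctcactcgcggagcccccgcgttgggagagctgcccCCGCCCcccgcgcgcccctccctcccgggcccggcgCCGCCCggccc
EPHB3: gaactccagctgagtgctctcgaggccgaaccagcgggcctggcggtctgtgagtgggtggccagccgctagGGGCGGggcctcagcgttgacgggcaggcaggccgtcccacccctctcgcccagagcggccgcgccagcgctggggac
EPHA2: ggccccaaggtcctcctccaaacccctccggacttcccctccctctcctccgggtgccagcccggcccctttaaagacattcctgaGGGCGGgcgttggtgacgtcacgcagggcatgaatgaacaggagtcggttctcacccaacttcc
EPHA4: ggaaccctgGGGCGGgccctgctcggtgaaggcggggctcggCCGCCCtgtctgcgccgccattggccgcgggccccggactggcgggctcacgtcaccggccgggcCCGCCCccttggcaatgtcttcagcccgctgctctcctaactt

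Over the 250 bases before each start, a GC box was present in 10 of 10 windows of the 9 measured genes, EPHA4 having more than 1 listed start, and in 42.6% of all 35116 RefSeq windows of that length. The windows of the measured genes had a GC content between 43.2% and 78.4%, against a median of 58% for all windows. Apart from EPHB6 at 48% and the upstream EPHA4 start at 43.2%, they were all above that median. The GC box holds only G and C, and its share was not compared among windows of like GC content. The E-box CACGTG, the AP-1 letters TGANTCA and the TCF/LEF letters CTTTGAT, all searched on both strands, were in 0 of the 10 windows and in 6.34%, 6.57% and 2.26% of all windows. The motifs were chosen after the values were seen. A match is a description of the sequence, and the absence of a match concerns only these letters in this window.

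Intensities are given as deposited, on a linear scale, and differences are log2(intensity + 16), which understates those of dim probe sets. A probe set was taken further when its mean log2 value over the 4 arrays reached the median of all probe sets, 6.07. Of the 18 member probe sets 13 passed, with at least 1 for each of the 9 genes, and the other 5 were dim probe sets of EPHA1 and EPHA4. Levels are compared between arrays for the same probe sets. The median intensities of the 4 arrays lay between 50.7 and 52.0. All 9 epithelial markers, such as EPCAM and CDH1, passed the filter, as did 4 of 9 endothelial markers (PECAM1, TEK, ESAM and ROBO4), 3 of 8 fibroblast markers (COL1A1, DCN and THY1) and 0 of 6 leukocyte markers measured. Of the endothelial genes that did not pass, CDH5, VWF and KDR had intensities from 9.66 to 24.3. On the brightest probe set of the targeted transcript, KSR1, untransfected cells read 209, shCTRL cells 211, hairpin #1 cells 141 and hairpin #2 cells 171. Both hairpin arrays were thus lowest on this probe set, at -0.53 and -0.28 log2 units relative to shCTRL. Probe sets of like brightness had SDs of 0.28 and 0.37 in these pairs, so the hairpin #2 value was within that spread. The other 3 KSR1 probe sets were below the filter, and on none of them were both hairpin arrays below both others. The brightest of these read 60.4 in untransfected, 49.6 in shCTRL, 43.7 in hairpin #1 and 51.1 in hairpin #2 cells.

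**Figure D1:**
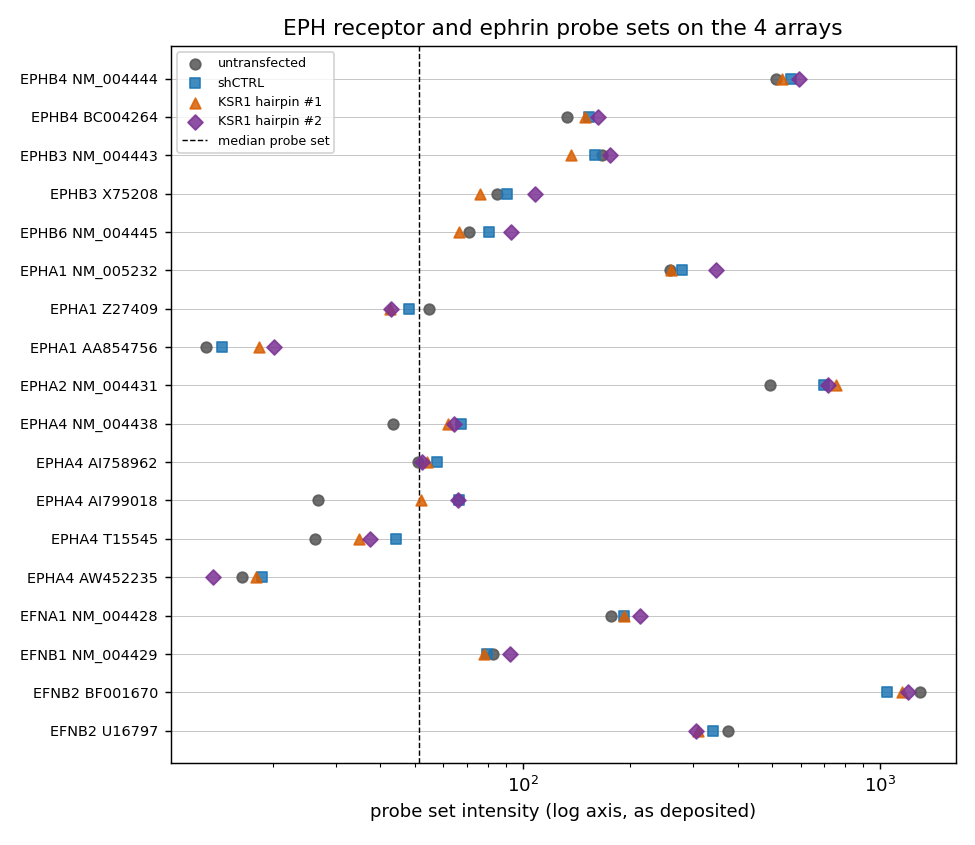
Deposited intensity (log axis) of the 18 EPH receptor and ephrin probe sets, 1 point per array, with a dashed line at the median probe set. EPHA2 and the EPHA4 probe sets NM_004438, AI799018 and T15545 have the untransfected array apart on the low side, while the EPHB4 points lie close together.

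None of the member probe sets past the filter reached 1 log2 unit, a 2-fold difference, on the log2(intensity + 16) scale in any of the 6 pairs of arrays. The count was 0 of 13 in every pair. Over all 27423 probe sets past the filter, 0.704% were 2-fold apart between shCTRL and untransfected cells, 0.427% between hairpin #1 and shCTRL and 1.65% between hairpin #2 and shCTRL. The share was 0.715% between hairpin #1 and untransfected cells, 1.93% between hairpin #2 and untransfected cells and 1.43% between the hairpins. At such shares a count of 0 among 13 is close to the background. Below the filter, the dim EPHA4 probe set AI799018 came to 0.95 log2 units between shCTRL and untransfected cells on this scale, while its deposited intensities of 66.6 and 26.8 are more than 2-fold apart.

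A limma comparison set both hairpin arrays against untransfected and shCTRL cells. Its errors come from how far the hairpins, and the untransfected and shCTRL cells, lie from each other, not from repeated cultures. It called 0 of 13 member probe sets and 0 of 27423 in all (0.00%) at an adjusted p under 0.05. At an unadjusted p under 0.05 it had 0 members and 2016 probe sets in all (7.35%). The smallest adjusted p by limma was 0.633 over all probe sets and 0.670 among the members, that of EFNB2 on U16797. None of the differences with hairpins given here therefore passed a test, and they are described by their values.

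EPHB4, an ephrin-B2 receptor known from blood vessel formation and from epithelial tumours, differed little between the arrays. On probe set NM_004444 its intensity was 512 in untransfected, 564 in shCTRL, 531 in hairpin #1 and 592 in hairpin #2 cells. The highest of these was 1.15-fold above the lowest on the log2 scale used. Relative to shCTRL, EPHB4 was at -0.084 with hairpin #1 and at 0.068 with hairpin #2. Probe sets of like brightness differed with an SD of 0.25 and 0.38 in these pairs of arrays. The hairpin arrays lay on either side of shCTRL and both above untransfected cells.

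The other EPHB4 probe set, BC004264, read 134 in untransfected, 153 in shCTRL, 150 in hairpin #1 and 163 in hairpin #2 cells. It put the 4 arrays in the same order, with untransfected cells lowest and hairpin #2 highest. The mean difference of hairpin arrays from the others was 0.060 (SE 0.115, limma adjusted p = 0.901) on the first probe set. On the second it was 0.11 (SE 0.115, limma adjusted p = 0.796). The first value turned to -0.0079 without the untransfected array and to -0.016 without hairpin #2, so its sign rested on single arrays. The second was 0.024 without untransfected cells, 0.059 without hairpin #2 and 0.20 without shCTRL. Of 7 genes linked to KSR1 in colon tumour cells, KSR1 itself included, 1 lay above and 2 below both other arrays with both hairpins, beside 22.8% and 17.6% of all probe sets. In the array order untransfected, shCTRL, hairpin #1, hairpin #2, PPARGC1B, the PGC-1beta coactivator, had 182, 154, 219 and 179, and PRKAA1, a catalytic subunit of the AMP-activated kinase, had 314, 248, 365 and 288. PRKAA2, the alternative catalytic subunit, was at 15.99 in untransfected and 61.6 in shCTRL cells, against 221 and 219 with the hairpins.

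EPHB3, the crypt receptor, was lowest with hairpin #1 and highest with hairpin #2 on both of its probe sets. On NM_004443 its intensities were 167 in untransfected, 160 in shCTRL, 136 in hairpin #1 and 175 in hairpin #2 cells. On X75208 they were 84.9, 90.4, 76.0 and 109 in the same order. The hairpin #2 array exceeded the hairpin #1 array by 0.33 and 0.44 log2 units, where probe sets of like brightness had an SD of 0.36 and 0.33 between these arrays. Over both hairpin arrays the difference from the others was -0.070 (SE 0.143) and 0.047 (SE 0.172), with limma adjusted p-values of 0.908 and 0.953, so the probe sets differed in sign once the hairpins were averaged.

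EPHB6, an EPHB receptor whose kinase domain is catalytically inactive, had the same placing of the hairpins. Its intensities on NM_004445 were 71.0 in untransfected, 80.7 in shCTRL, 66.5 in hairpin #1 and 93.0 in hairpin #2 cells. The hairpins differed by 0.40 log2 units, against an SD of 0.35 for probe sets of like brightness. The mean of both differed from the other arrays by 0.048 (SE 0.168, limma adjusted p = 0.950).

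EPHA1, an EPHA receptor of epithelia, was likewise highest with hairpin #2, but hairpin #1 matched untransfected cells. On NM_005232 it read 259 in untransfected, 279 in shCTRL, 260 in hairpin #1 and 349 in hairpin #2 cells. Hairpin #2 lay 0.31 above shCTRL, 0.41 above untransfected cells and 0.40 above hairpin #1. The SDs of probe sets of like brightness in these pairs were 0.37, 0.38 and 0.35, so only the last pair of differences exceeded that spread. The mean hairpin difference was 0.15 (SE 0.164, limma adjusted p = 0.803). Both dim EPHA1 probe sets disagreed with each other: Z27409 ran from 54.6 in untransfected cells down to 42.4 with hairpin #1, and AA854756 from 13.0 in untransfected cells up to 20.2 with hairpin #2.

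EPHA2, a receptor abundant in many carcinomas and a known transcriptional target of ERK signalling, stood apart in untransfected cells. Its intensities on NM_004431 were 492 in untransfected, 698 in shCTRL, 753 in hairpin #1 and 717 in hairpin #2 cells. The 3 arrays from vector-bearing cells lay close together and above the untransfected one. Relative to untransfected cells EPHA2 was higher by 0.49 in shCTRL, 0.60 with hairpin #1 and 0.53 with hairpin #2. Probe sets of like brightness had SDs of 0.28, 0.30 and 0.41 in these pairs. Relative to shCTRL it was at 0.11 and 0.039 with hairpins #1 and #2. Set against both other arrays the hairpin mean was higher by 0.32 (SE 0.186, limma adjusted p = 0.685), and the value was 0.073 without untransfected cells and 0.56 without shCTRL.

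EPHA4, a receptor that binds ephrins of both types, had 5 probe sets, and they did not give 1 picture. On NM_004438 it read 43.3 in untransfected, 67.1 in shCTRL, 61.9 in hairpin #1 and 64.5 in hairpin #2 cells, with untransfected cells apart on the low side. The differences from untransfected cells were 0.49, 0.39 and 0.44, where probe sets of like brightness had SDs of 0.21, 0.25 and 0.29. The dim AI799018 showed the same order with 26.8, 66.6, 52.1 and 66.0, and so did T15545 with 26.2, 44.3, 34.8 and 37.5. The probe set AI758962 had untransfected cells lowest too, but its values of 51.1, 57.6, 54.1 and 52.4 spanned only 1.10-fold. The dimmest, AW452235, was lowest with hairpin #2 at 13.6 and between 16.4 and 18.7 elsewhere. With hairpins the mean differed from the other arrays by 0.17 (SE 0.184) on NM_004438 and by -0.021 (SE 0.104) on AI758962, with limma adjusted p-values of 0.802 and 0.965.

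Among the ligands, EFNA1, an A-type ephrin that binds EPHA2, lay slightly higher with hairpin #2. Its intensities on NM_004428 were 176 in untransfected, 192 in shCTRL, 193 in hairpin #1 and 213 in hairpin #2 cells. Hairpin #1 and shCTRL differed by 0.0056 log2 units, and the mean hairpin difference was 0.13 (SE 0.109, limma adjusted p = 0.757). That value was 0.062 without hairpin #2, 0.073 without untransfected cells and 0.196 without hairpin #1. EFNB1, a transmembrane ligand of EPHB receptors, read 82.8, 79.4, 78.0 and 92.4 on NM_004429 in the same order of arrays. Hairpin #2 was thus highest and the remaining 3 arrays lay close together, and the mean hairpin difference was 0.056 (SE 0.116, limma adjusted p = 0.909).

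EFNB2, the transmembrane ligand of EPHB4, had 2 probe sets that placed the hairpin arrays on opposite sides of shCTRL. On BF001670 its intensities were 1295 in untransfected, 1051 in shCTRL, 1157 in hairpin #1 and 1197 in hairpin #2 cells. On U16797 they were 377, 341, 309 and 305. Both probe sets were highest in untransfected cells, but the first was lowest in shCTRL and the second was lowest with the hairpins. The shCTRL array lay at -0.30 relative to untransfected cells on the first probe set, past the SD of 0.26 for probe sets of like brightness. The mean hairpin difference was 0.012 (SE 0.135, limma adjusted p = 0.987) on the first and -0.21 (SE 0.104, limma adjusted p = 0.670) on the second.

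Differences were also set against 1 SD of probe sets of like brightness in the same pair of arrays. Against shCTRL, 0 of 13 member probe sets exceeded this spread with hairpin #1 and 0 with hairpin #2, where 24.9% and 18.6% of all probe sets did. Between shCTRL and untransfected cells 3 exceeded it, EPHA2, EPHA4 on NM_004438 and EFNB2 on BF001670, beside 22.5% of all. With hairpin #1 against untransfected cells the 2 beyond it were EPHA2 and EPHA4 on NM_004438, beside 24.3% of all. With hairpin #2 against untransfected cells EPHA1 joined them, which made 3, beside 20.3% of all. Between the hairpins 3 were beyond it, EPHB3 on X75208, EPHB6 and EPHA1, beside 17.0% of all. These shares of 13 were near or under the background. EPHA4 on NM_004438 was at 5.89 log2 units in untransfected cells and passed the filter only through the arrays of vector-bearing cells.

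**Figure D2:**
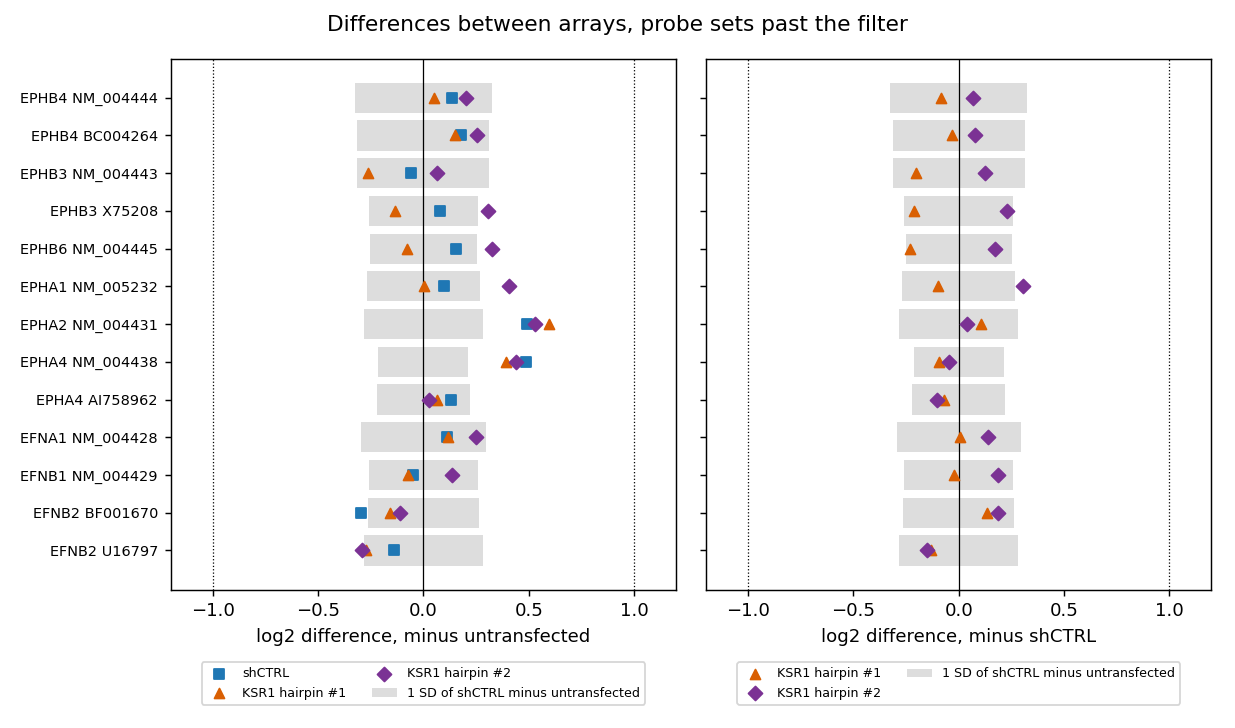
Log2 differences of the 13 EPH receptor and ephrin probe sets past the filter, relative to untransfected cells (left) and to shCTRL (right), with grey bars for 1 SD of the shCTRL minus untransfected difference among probe sets of like brightness and dotted lines at 1 log2 unit. All 3 vector-bearing arrays lie right of the bar for EPHA2 and for EPHA4 on NM_004438, and relative to shCTRL the EPHA1 value of hairpin #2 (0.31) is the one point beyond its bar. That value is within the SD of 0.37 for hairpin #2 minus shCTRL itself.

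Few members placed both hairpin arrays outside the range of the other arrays. EPHA2 and EFNA1 had both hairpins above, 2 of 13, beside 22.8% of all probe sets. EFNB2 on U16797 had both below, 1 of 13, beside 17.6% of all. After quantile normalization, 1 remained, EFNB2 on U16797. The median difference of hairpin arrays from the others was 0.056 over the 13 members and 0.020 over all probe sets.

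Other orderings were chosen after the values were seen. Hairpin #2 gave the highest of the 4 values for 8 of 13 member probe sets, those of EPHB4, EPHB3, EPHB6, EPHA1, EFNA1 and EFNB1, beside 28.7% of all probe sets. The median of hairpin #2 minus untransfected was 0.25 over the members and 0.023 over all. Hairpin #1 below and hairpin #2 above both other arrays was seen for 4 of 13, beside 6.90% of all. Untransfected cells gave the lowest value for 7 of 13, both EPHB4 probe sets, EPHA1, EPHA2, EFNA1 and 2 of EPHA4, beside 30.5% of all. In untransfected cells these 2 EPHA4 probe sets were at 5.889 and 6.069 log2 units, under the filter level of 6.073. They passed the filter only through the arrays of vector-bearing cells, so their place in this count is no support for it. Probe sets of 1 gene are not independent, and no test was made of these counts.

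Epithelial markers were often highest on the hairpin #2 array too, and limma called 0 of them. Of the 9 past the filter, 7 had their highest value there, beside 28.7% of all probe sets, and EPCAM and VIL1 did not. Among the 7, the keratin KRT18 was at 13161, 13455, 12123 and 16755, in the array order untransfected, shCTRL, hairpin #1, hairpin #2. The intestinal transcription factor CDX2 was at 89.3, 83.4, 79.9 and 131. The summed intensity of the 9 markers was 38874, 39423, 36666 and 47161 in the same order, and their median difference from shCTRL was -0.13 with hairpin #1 and 0.32 with hairpin #2. Of the endothelial and fibroblast markers past the filter, 0 had the highest value with hairpin #2. Over each whole list the summed intensity was 328 to 371 for endothelial, 590 to 666 for fibroblast and 136 to 157 for leukocyte markers. The part of these markers in the EPH receptor values was not tested. In RNA from whole cultures, fewer cells of a type and less RNA per cell cannot be told apart.

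The remaining EPH receptors and ephrins were mostly dim. Of 12 further family genes 5 passed the filter. The A-type ligands EFNA2, EFNA3 and EFNA4 and the receptor EPHA8 lay below both other arrays with both hairpins, 4 of 5, beside the 17.6% of all probe sets given above, and limma called 0. EFNA2 read 321 in untransfected, 387 in shCTRL, 263 in hairpin #1 and 227 in hairpin #2 cells, a mean hairpin difference of -0.50 (SE 0.14, limma adjusted p = 0.664). EFNA2 had 2 other dim probe sets, at 19.9 to 24.4, which gave opposite directions. EFNA3 read 373, 376, 284 and 308 and EFNA4 258, 240, 204 and 213 in the same order. With hairpins #1 and #2, EFNA3 lay at -0.39 and -0.27 relative to shCTRL, EFNA4 at -0.22 and -0.16, and EFNA2 at -0.53 and -0.73. Probe sets of like brightness had SDs of 0.26 and 0.35, 0.27 and 0.35, and 0.26 and 0.37, in the same order of genes. Both EFNA4 values and the hairpin #2 value of EFNA3 were thus within that spread. EPHA8 with hairpin #2 was at -0.026, also within it (SD 0.37). EFNA1, the A-type ligand among the members, had both hairpins above both other arrays. Hairpin #1 was above shCTRL by only 0.0056, and the placing was lost after quantile normalization.

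Genes that pass on or cut EPH and ephrin signals had no common direction. Limma called 0 in any list described here, higher or lower, and a gene can stand in more than 1 list. Of 25 adaptors and kinases past the filter, 5 lay above and 4 below both other arrays with both hairpins, beside 22.8% and 17.6% of all probe sets, with a median of 0.034. The guanine nucleotide exchange factor VAV2 was at 237, 259, 316 and 329, in the same array order, and the adaptor CRKL at 1521, 1593, 1367 and 1196. GRB10, an SH2 adaptor, was lowest in untransfected cells at 229, against 430, 414 and 464, and SLA, another adaptor, read 68.9, 69.7, 56.2 and 47.5.

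Genes of ephrin-B reverse signalling lay above in 3 and below in 2 of 14, beside 22.8% and 17.6% of all probe sets, with a median of 0.085. The tight junction protein CLDN4, which ephrin-B1 is known to bind, read 342, 479, 494 and 559, and the RAC exchange factor TIAM1 was higher in shCTRL at 1627 than in the other arrays, at 778, 1217 and 751. Of 7 proteases and gamma-secretase genes 1 lay above and 1 below, beside the same 22.8% and 17.6%, with a median of 0.066. ADAM10, the main sheddase of ephrins, was at 2566 in untransfected, 2664 in shCTRL, 2480 in hairpin #1 and 4169 in hairpin #2 cells, so hairpin #2 stood apart and hairpin #1 was lowest. PSEN2, a gamma-secretase subunit, read 142, 134, 169 and 179.

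Wnt targets, among which EPHB3 is usually counted, held several genes that differed more between single arrays than EPHB3 did. Of 11 past the filter, 0 lay above and 3 below both other arrays with both hairpins, beside 22.8% and 17.6% of all probe sets, and their median was -0.076 for hairpin arrays and 0.54 for shCTRL minus untransfected. The feedback inhibitor AXIN2 read 230 in untransfected, 344 in shCTRL, 208 in hairpin #1 and 933 in hairpin #2 cells, the same placing of the hairpins as EPHB3. The ubiquitin ligase ZNRF3 read 188, 515, 440 and 954, but its relative RNF43 had its lowest value with hairpin #2, at 235 against 362, 929 and 620, and so did the hyaluronan receptor CD44, at 2694 against 3539, 5848 and 3632. EPHB3 in shCTRL lay at -0.058 and 0.077 log2 units relative to untransfected cells on its probe sets.

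Other receptor tyrosine kinases lay above both other arrays with both hairpins in 2 and below in 5 of 15, beside 22.8% and 17.6% of all probe sets, with a median of 0.035. EGFR was the lowest of them relative to the other arrays, at 664 in untransfected, 811 in shCTRL, 452 in hairpin #1 and 510 in hairpin #2 cells. FGFR1 read 651, 550, 468 and 448, and the insulin receptor INSR 542, 539, 424 and 438. ERBB2 read 367, 383, 407 and 545, highest with hairpin #2 like EPHB4.

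**Figure D3:**
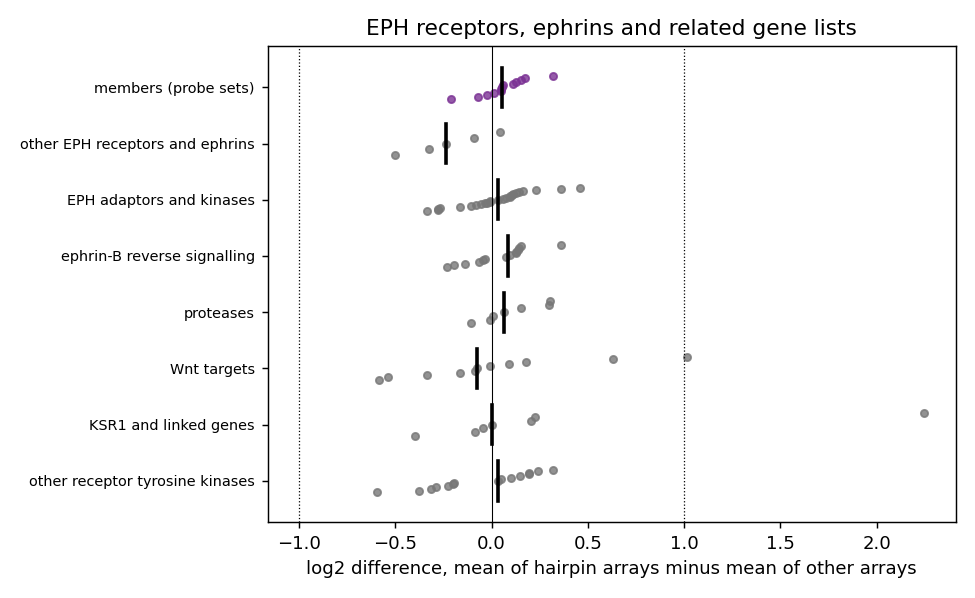
Log2 difference between the mean of the hairpin arrays and the mean of the other arrays, 1 point per member probe set (purple) or per gene (grey) past the filter, with a bar at each median and dotted lines at 1 log2 unit. The member points lie between -0.21 and 0.32, while ZNRF3 among the Wnt targets and PRKAA2 among the genes linked to KSR1 pass 1. PRKAA2 passed the filter only through the hairpin arrays.

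Profiles close to that of EPHB4 were common. By the Euclidean distance between profiles centred on their mean over the 4 arrays, the nearest of 22793 other probe sets belonged to APLP2, GPS2, INO80B, BUB3 and C2CD2, with distances from 0.0070 to 0.016. As the EPHB4 profile on NM_004444 spans only 0.20 log2 units, 902 probe sets lay within 0.1 of it. EPHA2 had the widest profile among the members' brightest probe sets, at 0.60 log2 units. Its nearest profiles belonged to TMEM9B, DANCR, DYNLL2, TGOLN2 and PAFAH1B1, with distances from 0.024 to 0.044, and 68 probe sets lay within 0.1. Profiles of 4 arrays are described here without a test.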

How the data were processed

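The authors deposited intensity values on a linear scale, 1 per probe set and array, from 4 one-colour arrays hybridized, per the labels' protocols, with biotinylated cRNA from 2.5 micrograms of total RNA. How they corrected background, summarised probes and scaled the arrays was not stated in the sources used. No value column (0) was left unused. Values were used as deposited and converted to log2(intensity + 16). Gene names came from the platform annotation, for the 41097 probe sets with 1 symbol only. The 27423 probe sets with a mean at or above the median log2 value were fitted with limma 3.58.1 (R 4.3.3, lmFit, eBayes, Benjamini-Hochberg). Both hairpin arrays were set against both others, with 2 residual degrees of freedom. The fit was tested on simulated data with shifts of 2 log2 units, larger than any difference of a member here. Smaller shifts were not simulated. For 2 arrays, a difference was counted at 1 log2 unit, or past the SD of probe sets in the same of 20 brightness bins. Precision is limited by having 4 arrays. The 10 members, 8 related lists (1 is not reported here) and the cell type markers were chosen with earlier results of these data known. A list gene took its brightest probe set, and up to 4 genes per list were named by the size of the hairpin difference. Markers and family genes without this rule were chosen after their values were seen. Alternatives covered pseudocounts of 1 and 64, no filter, quantile normalization, median centring, gene means and leaving out each array.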

Additional observations from a re-analysis of the deposited data

Results flagged for a closer look

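The hairpin arrays lay on opposite sides of both other arrays for 4 of 13 member probe sets, hairpin #1 below and hairpin #2 above. Over all probe sets past the filter the share was 6.90%. Hairpin #2 minus hairpin #1 was 0.33 for EPHB3 on NM_004443, 0.44 for EPHB3 on X75208, 0.40 for EPHB6 and 0.21 for EFNB1, in log2 units. Probe sets of like brightness had SDs of 0.36, 0.33, 0.35 and 0.33 between the hairpins, in the same order. EPHB3 on NM_004443 and EFNB1 were thus within this spread. There is 1 array per hairpin, so the difference between hairpins was not tested.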

How the results depend on the processing

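With 1 array per kind of cell, a filter on brightness and an unstated scaling by the authors, small differences cannot be told from variation between arrays. No paired analysis was possible because each group has 1 array. Limma called 0 probe sets under each alternative run for it. The count of members 1 log2 unit apart was 0 under each alternative run for it; gene means were not among them, and a pseudocount of 1 was run on the members past the filter. The count of members with both hairpin arrays on 1 side of both others was 3 as reported, 5 without the filter and 1 after quantile normalization, and ranged from 7 to 10 with 1 array left out, where fewer arrays have to be separated. The share over all probe sets was not taken under these alternatives, so the counts cannot be set against a background. The orderings chosen after the values were seen moved as well. After quantile normalization, members lowest in untransfected cells went from 7 to 5 of 13, and members highest with hairpin #2 from 8 to 7. Hairpin #1 below and hairpin #2 above both others went from 4 to 5 after quantile normalization and to 3 after median centring. Of 126 alternative values of single members' hairpin differences, 110 kept their sign and 16 turned, none of them called. EFNB2 on BF001670 turned to -0.025 after quantile normalization and to -0.0997 as a gene mean. EPHA4 on AI758962 turned to 0.00066 after quantile normalization and 0.0012 after median centring. With each array left out in turn, the ranges that crossed 0 were -0.17 to 0.27 for EPHB3 on X75208, -0.14 to 0.16 for EFNB2 on BF001670, -0.047 to 0.16 for EFNB1 on NM_004429, -0.016 to 0.14 for EPHB4 on NM_004444, -0.23 to 0.094 for EPHB3 on NM_004443, -0.15 to 0.25 for EPHB6 on NM_004445, -0.048 to 0.36 for EPHA1 on NM_005232, -0.069 to 0.42 for EPHA4 on NM_004438 and -0.087 to 0.045 for EPHA4 on AI758962. The cause was not tested.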
